A study of Mus musculus with 6 samples.

Results

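The genes described here encode the extracellular matrix, the proteins that fold and cross-link it, and surface and contractile proteins typical of stromal cells. A list of 45 gene symbols was matched by name to the deposited gene count table. The matching used no measured value, but the list was drawn up with earlier results of these data known, so counts over it are not those of a list chosen blind. Of these, 43 were found among the 16254 genes of the table. Col14a1 and Eln were not analysed here. The samples were eosinophils grown from the bone marrow of C57BL/6 mice, first with FLT3 ligand and stem cell factor and then with IL-5. A sort of the cells before RNA extraction is not given in the sources used here. The 3 EV-treated cultures received 5e9 extracellular vesicles (EVs) per ml, purified by size exclusion from the medium of activated TH2 cells, the CD4+ helper T cells of type 2 inflammation. The 3 sham-treated cultures received an equal volume of unconditioned medium carried through the same purification, and both groups were collected after 24 h. The labels call the samples of a group biological replicates. Whether these came from separate mice is not given in the sources used here, so p-values measure the spread between these samples.

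Fibrillar collagens are secreted as triple helices, trimmed, and cross-linked by lysyl oxidases into fibers. Sheets of type IV collagen, laminins, nidogen and perlecan form basement membranes, and glycoproteins such as fibronectin, tenascin C and the thrombospondins link these networks to integrins on cells. In bone marrow most of this matrix is made by stromal cells, osteoblasts and vessel walls, whereas eosinophils are known mainly for granule proteins. Poly(A) RNA was sequenced, and the counts per library summed to between 23697620 and 37874426. Values below are TMM-normalized counts, that is, rounded counts divided by a library size scaled with edgeR's TMM method. Samples are listed in the order of replicates 1, 2 and 3.

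The labelled cell type was visible in every library. Eosinophil markers were found for 10 of 11 genes of the list, with none at 0, and Prg2, the major basic protein of eosinophil granules, lay between 558759 and 777590.0. For the matrix genes, 1 EV-treated culture stood apart from the others. In EV replicate 1, the level was over 2 times the mean of EV replicates 2 and 3 for 29 of the 39 matrix and stromal genes tested, or 74.4%, against 3.16% of all 13498 genes tested. The median of this ratio was 5.03 for the matrix genes and 0.997 for all genes. The corresponding count for sham replicate 1 was 5 of 39, or 12.8%, against 3.43% of all genes. Values without EV replicate 1 are given beside those of all 6 samples for most genes below. This sample was picked out by its high values for these same genes. A larger fall without it follows from that choice and is not separate support.

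Most matrix and stromal genes had lower values in EV-treated than in sham-treated cultures. Of the 39 genes with enough counts to be tested, 13 fell at an adjusted p under 0.01 by edgeR's quasi-likelihood test, or 33.3% of them, beside 11.6% of all genes tested. None of the 39 rose, beside 12.1% of all genes, and none was higher at an unadjusted p under 0.05 or with DESeq2 or limma at an adjusted p under 0.01. The fitted log2 fold change was below 0 for 38 of 39 genes, with a median of -2.47, where the median of all genes was -0.014. At an adjusted p under 0.05, 31 of 39 were lower, beside 18.4% of all genes. The 3 sham-treated cultures lay above the 3 EV-treated cultures without overlap for 29 of 39 genes, beside 24.7% of all genes. The other 10 overlapped.

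The count of genes that fell depended on single libraries, and most on EV replicate 1. Without it, 32 of 39 fell, beside 8.62% of all genes, and the median log2 fold change was -3.82. The count was 7 of 39 without sham replicate 1, beside 12.3% of all genes, and 14 of 41 without sham replicate 2, beside 9.71%. It was 5 of 41 without sham replicate 3, EV replicate 2 or EV replicate 3, beside 8.67%, 7.48% and 7.29% of all genes. These counts of 5 were much closer to the share of all genes than the count without EV replicate 1. Thbs1, Mamdc2, Cav1, Col18a1 and Col4a2 fell in each of the 6 fits that left out 1 library. The other 8 of the 13 genes lost the call in 3 to 5 of these fits, and none of them when EV replicate 1 was left out. The 7 genes that did not fall without EV replicate 1 were Col5a1, Lamc1, Loxl1, Loxl2, Pcolce, Pdgfra and Pdgfrb.

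**Figure D1:**
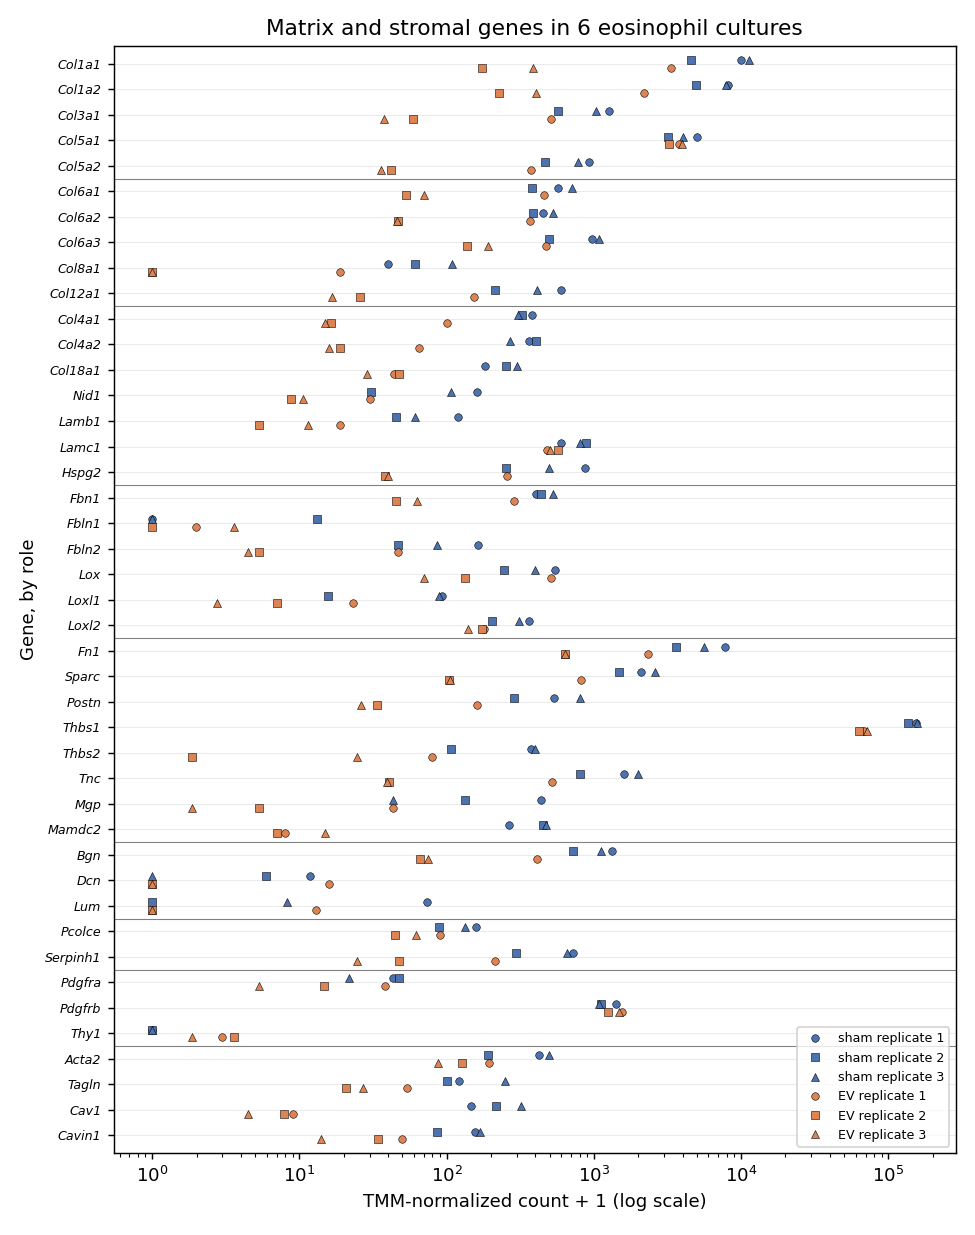
TMM-normalized count plus 1, on a log scale, of the 43 matrix and stromal genes in 3 sham-treated (blue) and 3 EV-treated (orange) eosinophil cultures, with circles, squares and triangles for replicates 1, 2 and 3 and lines between role groups. EV replicate 1 is the highest EV-treated sample for 34 of the 39 genes tested, beside 4493 of all 13498 genes tested. Thbs1 lies far to the right of all other genes shown.

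Windows of 250 bases directly before the annotated start were taken from RefSeq on GRCm38.p6, a patch release of the mm10 assembly, for the genes that had one. They matched 27 of the 43 genes in 34 windows. Of the 13 genes that fell, Cav1, Postn and Bgn have windows free of any annotated exon, and 1 window of each is shown. Cav1 lacked the high EV replicate 1 of Postn and Bgn, and a link between sequence and change was not tested. Capitals mark matches on either strand to TATAAA (the TATA box), CCAAT (the CCAAT box), TGANTCA (the AP-1 motif), GGGCGG (the GC box) and TTCNNNGAA (the common STAT motif), where N is any base. They also mark the STAT6 motif, with 4 free bases between TTC and GAA, and the CArG box of serum response factor.
Cav1 (chr6:17306085-17306334, plus strand): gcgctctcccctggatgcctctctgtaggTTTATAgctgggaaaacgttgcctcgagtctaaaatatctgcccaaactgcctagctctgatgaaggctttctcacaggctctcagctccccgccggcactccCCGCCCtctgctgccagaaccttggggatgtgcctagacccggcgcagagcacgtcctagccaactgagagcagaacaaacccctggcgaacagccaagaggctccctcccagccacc
Postn (chr3:54360857-54361106, plus strand): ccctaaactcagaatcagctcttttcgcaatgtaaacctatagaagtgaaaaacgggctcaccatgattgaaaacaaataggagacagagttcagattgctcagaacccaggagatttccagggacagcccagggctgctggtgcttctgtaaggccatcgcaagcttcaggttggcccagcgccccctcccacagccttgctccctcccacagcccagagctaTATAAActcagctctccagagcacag
Bgn (chrX:73483351-73483600, plus strand): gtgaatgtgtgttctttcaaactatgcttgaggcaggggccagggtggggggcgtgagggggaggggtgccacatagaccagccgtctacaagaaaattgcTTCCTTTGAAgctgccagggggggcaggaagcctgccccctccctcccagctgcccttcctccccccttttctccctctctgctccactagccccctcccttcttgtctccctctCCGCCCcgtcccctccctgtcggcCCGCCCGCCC

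In the windows shown, TATAAA was found 1 time for Cav1, 1 time for Postn and 0 times for Bgn, and GGGCGG 1 time for Cav1, 0 times for Postn and 3 times for Bgn. Cav1 and Postn each have another exon-free window, which held 0 matches to any of the motifs. Over all 34 windows of the matrix genes, TATAAA was found in 6, CCAAT in 9, TGANTCA in 1, GGGCGG in 21, TTCNNNGAA in 0, the STAT6 motif in 1 and the CArG box in 0. Among all 32851 windows of the table the shares were 12.4% for TATAAA, 33.8% for CCAAT, 6.75% for TGANTCA, 32.7% for GGGCGG, 7.02% for TTCNNNGAA, 5.85% for the STAT6 motif and 1.47% for the CArG box. Some windows belong to the same gene or overlap, and a match is only a match of letters.

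Among the fibrillar collagens, Col1a1 and Col1a2 encode the chains of type I collagen, the main fiber of bone and tendon. Per kilobase of transcript they were the most abundant of the matrix genes after Thbs1 in sham-treated cultures, at a mean of 1455 and 1307 normalized counts. Col1a2 was counted at 8149, 4955 and 7860.2 in the sham-treated and at 2188, 227 and 403 in the EV-treated cultures. The groups did not overlap, and EV replicate 1 lay well above the other EV-treated samples. Col1a2 fell, with a log2 fold change of -2.91 ± 0.66 (SE) and an adjusted p of 0.00662. The call did not hold without any one of the other 5 libraries, with adjusted p up to 0.0325, whereas without EV replicate 1 the log2 fold change was -4.46 with an adjusted p of 4.74e-06. Col1a1 had 9942, 4587 and 11349.8 in the sham-treated and 3349, 173 and 382 in the EV-treated cultures, again without overlap. Its log2 fold change of -2.74 ± 0.85 did not pass the threshold, with an adjusted p of 0.0303. It was -4.95 with an adjusted p of 3.6e-05 without EV replicate 1. With any other library left out, the adjusted p was 0.0358 to 0.105.

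Col5a1, a chain of the type V collagen that controls fiber diameter, was the 1 fibrillar collagen whose groups overlapped. It had 4992, 3161 and 4009.7 in the sham-treated and 3807, 3243 and 3951 in the EV-treated cultures. Its log2 fold change was -0.15 ± 0.14, with an adjusted p of 0.476, and it was 0.038 without sham replicate 1. Its partner chain Col5a2 had 924, 463 and 784 against 373, 41.1 and 34.8, with an adjusted p of 0.0334. Col3a1, of the more pliable type III collagen, had 1269, 572 and 1038 against 511, 58.3 and 36.6, with an adjusted p of 0.0418. Both were lower without overlap, but neither passed the threshold until EV replicate 1 was left out, at an adjusted p of 1.45e-05 for Col5a2 and 2.75e-05 for Col3a1. Of the 5 fibrillar collagens, 1 thus fell, beside 11.6% of all genes, and their median log2 fold change was -2.30.

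None of the 5 other collagens tested fell at an adjusted p under 0.01, beside 11.6% of all genes. With 5 genes, a count of 0 is not far from that share. Their log2 fold changes ranged from -3.54 to -1.53. Col6a1, Col6a2 and Col6a3 encode the chains of the beaded filaments of type VI collagen. Col6a3 had 962, 495 and 1074 in the sham-treated and 474, 135 and 189.7 in the EV-treated cultures, with a log2 fold change of -1.67 ± 0.43 and an adjusted p of 0.0119, or 0.000434 without EV replicate 1. Col6a1 had 572, 377 and 708 against 461, 52.3 and 68.8, and Col6a2 had 451, 384 and 526 against 366, 45.4 and 45.3. In both, EV replicates 2 and 3 were far below every sham-treated sample, while EV replicate 1 lay within the sham-treated range for Col6a1 and just under it for Col6a2. The groups overlapped for Col6a1, and the adjusted p was 0.106 for Col6a1 and 0.0914 for Col6a2. Without EV replicate 1 these values were 4.82e-05 and 8.75e-06. With any other library left out, the adjusted p of Col6a1 was 0.112 to 0.285. Col12a1 and Col8a1, a fibril-associated and a network-forming collagen, had an adjusted p of 0.014 and 0.0427, and of 0.000122 and 0.00104 without EV replicate 1. Col8a1 was at 0 counts in EV replicates 2 and 3.

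Of the 7 basement membrane genes 4 fell, beside 11.6% of all genes. All 7 were lower at an adjusted p under 0.05, beside 18.4% of all genes. Col4a1 and Col4a2 encode the chains of the type IV collagen network and are transcribed in opposite directions from neighboring starts. On mm10 in the GENCODE vM21 annotation, Col4a1 spans 11198423 to 11312826 of the minus strand of chromosome 8, and Col4a2 spans 11312805 to 11449287 of its plus strand, so exons at their heads overlap. Col4a2 had 363, 406 and 267 in the sham-treated and 63.9, 18.0 and 14.8 in the EV-treated cultures. It fell by 3.44 ± 0.47 (SE) on the log2 scale, with an adjusted p of 0.000306 and of at most 0.00205 in the fits without 1 library. Col4a1 had 378, 326 and 306 against 99.9, 15.4 and 13.9. It fell by 2.99 ± 0.61 (SE) on the log2 scale, with an adjusted p of 0.00356. Its adjusted p lay between 0.0101 and 0.014 without any one library other than EV replicate 1, and at 3.6e-06 without that one.

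Col18a1, the precursor of endostatin, spans 77052178 to 77166548 of the minus strand of chromosome 10. Its normalized counts were 180.2, 250.0 and 300.1 in the sham-treated and 43.0, 46.3 and 27.9 in the EV-treated cultures, and EV replicate 1 lay within the range of the other EV-treated samples. The log2 fold change was -2.64 ± 0.29, with an adjusted p of 6.98e-05, and was -2.70 without EV replicate 1. Lamb1, the laminin β1 chain, was a low-count gene with 119, 44.1 and 59.5 against 18.0, 4.29 and 10.4. It fell, with a log2 fold change of -2.77 ± 0.64 and an adjusted p of 0.00694, which reached 0.0334 without sham replicate 1, 0.0152 without sham replicate 3, 0.0294 without EV replicate 2 and 0.0372 without EV replicate 3. Lamc1, the laminin γ1 chain, had 592, 877 and 809 against 477, 567 and 499, a small difference of -0.56 ± 0.15 on the log2 scale with an adjusted p of 0.0165, or 0.0658 without EV replicate 1. Hspg2, which encodes perlecan, had 875, 252 and 491 against 258, 36.9 and 39.2, with an adjusted p of 0.0275, and passed the threshold without EV replicate 1, at 0.000335. For Nid1, nidogen 1, the values were 159, 29.4 and 106 against 29.0, 7.71 and 9.57, with an adjusted p of 0.0136, and 0.00782 without EV replicate 1.

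No gene of elastic fibers and cross-linking fell among the 5 tested, beside 11.6% of all genes, a share from which 0 of 5 is not far. Their log2 fold changes lay between -2.72 and -0.74. Fbn1, the fibrillin of microfibrils, had 404, 438 and 529 in the sham-treated and 286, 44.6 and 61.8 in the EV-treated cultures. Its adjusted p was 0.0285, and 1.64e-05 without EV replicate 1. Lox, the lysyl oxidase that starts collagen cross-links, had 545, 244 and 399 against 514, 133 and 69.6. EV replicate 1 thus lay within the sham-treated range, and the log2 fold change was -0.74 ± 0.59 with an adjusted p of 0.373. Without EV replicate 1 it was -1.96 and passed the threshold, at an adjusted p of 0.00374. For Loxl2, another lysyl oxidase, the values were 359.5, 203 and 311 against 178, 174 and 139, with an adjusted p of 0.0174, or 0.0361 without EV replicate 1. Because 46.2% of the 31-base words of Loxl2 transcripts also occur in other genes, most of all in Gm21451, its counts are uncertain. Fbln2 and Loxl1 had adjusted p-values of 0.0534 and 0.0419, and of 0.00147 and 0.0161 without EV replicate 1. Fbln1, at no more than 10 counts in any library, was not tested.

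The glycoproteins and matricellular proteins, which bind collagen and cell surface receptors, held 4 of the 13 genes that fell. That is 4 of 8 in the group, beside 11.6% of all genes. All 8 were lower without overlap, for Mgp only narrowly, beside 24.7% of all genes. Thbs1 encodes thrombospondin 1, a secreted protein that binds CD36, CD47 and integrins and activates latent TGF-β. It spans 118111876 to 118127133 of the plus strand of chromosome 2. Thbs1 was by far the most abundant of the matrix genes per kilobase, at a mean of 25346 normalized counts in sham-treated and 11574 in EV-treated cultures, where Col1a1 was at 1455 and 219. Its normalized counts were 152806, 134876 and 156994 in the sham-treated and 68681, 62783 and 71583 in the EV-treated cultures, a close spread in both groups. Thbs1 fell, with a log2 fold change of -1.13 ± 0.070 and an adjusted p of 1.55e-06, and the adjusted p stayed at or under 4.78e-05 without any one library. The annotated antisense gene Gm29233 overlaps a Thbs1 exon, and whether strand was used in counting is not given in the sources used here.

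Fn1, which encodes fibronectin, the adhesive glycoprotein bound by α4 and α5 integrins, had 7801, 3619 and 5569 in the sham-treated and 2327, 639 and 639 in the EV-treated cultures. The means were 5663 ± 2093 and 1202 ± 974 (SD, n = 3). Fn1 fell, with a log2 fold change of -2.24 ± 0.47 (SE) and an adjusted p of 0.00435, but this rose to 0.0152 without sham replicate 1, 0.0181 without sham replicate 3, 0.0192 without EV replicate 2 and 0.0215 without EV replicate 3. Sparc, or osteonectin, a collagen-binding protein abundant in bone, had 2101, 1478 and 2589 against 816, 103 and 104. Its log2 fold change of -2.61 ± 0.66 narrowly missed the threshold, at an adjusted p of 0.0113, and passed it without EV replicate 1, at 2.27e-06. Postn, or periostin, a matricellular protein of bone surfaces and of type 2 inflammation, had 538, 287 and 801 against 161, 32.6 and 25.2. It fell, with a log2 fold change of -2.92 ± 0.63 and an adjusted p of 0.00475. This value was 0.0111 without sham replicate 1, 0.0266 without sham replicate 3, 0.0228 without EV replicate 2 and 0.0202 without EV replicate 3.

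Mamdc2, a secreted proteoglycan with MAM domains, showed the largest fold change of the 39 genes in the 6-sample fit. The gene spans 23302609 to 23448442 of the minus strand of chromosome 19. It was counted at 262, 449.8 and 471 in the sham-treated and at only 6.99, 6.00 and 13.9 in the EV-treated cultures. Here EV replicate 1 was not the highest EV-treated sample. The log2 fold change was -5.43 ± 0.37, with an adjusted p of 2.92e-06, and was -5.28 without EV replicate 1. Tnc, or tenascin C, had 1589, 805 and 2000.0 against 515, 39.4 and 38.3, with an adjusted p of 0.0171. Thbs2, thrombospondin 2, had 374, 107 and 395 against 78.9, 0.857 and 23.5, with an adjusted p of 0.0172. Mgp, the matrix Gla protein that inhibits calcification, was uneven among the sham-treated cultures themselves, at 439, 131 and 42.5, and lay at 42.0, 4.29 and 0.870 in the EV-treated cultures, with an adjusted p of 0.02. None of the 3 passed the threshold in the 6-sample fit, and each did without EV replicate 1, at 1.42e-05 for Tnc, 0.00329 for Thbs2 and 0.00282 for Mgp.

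**Figure D2:**
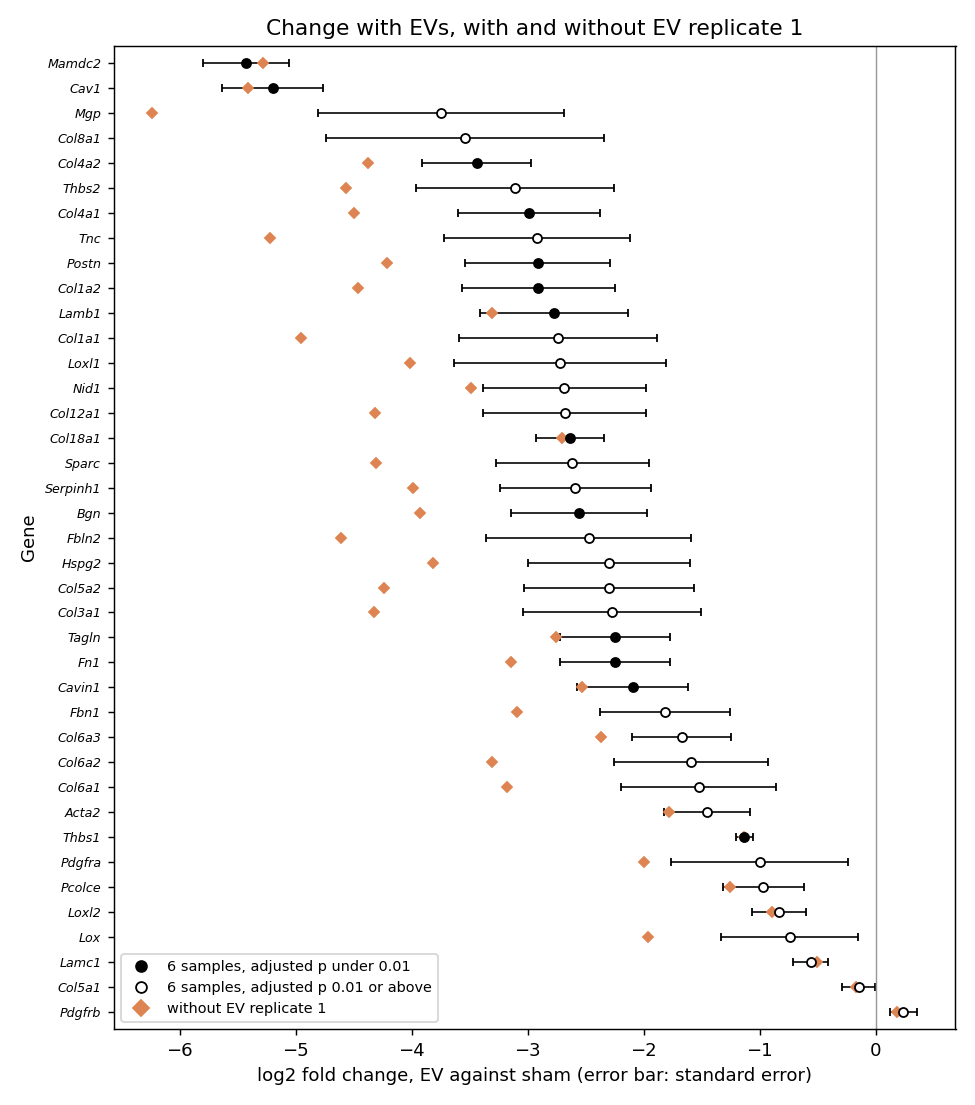
Log2 fold change of EV-treated against sham-treated cultures for the 39 genes tested, with the standard error of the fit to 6 samples (filled where the adjusted p was under 0.01) and, as orange diamonds, the value without EV replicate 1. The diamonds lie further to the left for most genes, while those of Mamdc2, Cav1, Col18a1 and Thbs1 lie close to the 6-sample value; Col8a1 has no diamond because its remaining EV-treated libraries had 0 counts.

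Of the small leucine-rich proteoglycans, which sit on collagen fibrils, only Bgn had enough counts to be tested. Bgn, or biglycan, had 1334, 717 and 1118 in the sham-treated and 408, 65.1 and 73.1 in the EV-treated cultures. It fell, with a log2 fold change of -2.56 ± 0.59 and an adjusted p of 0.00706. The call was lost without any one library other than EV replicate 1, with an adjusted p between 0.011 and 0.0306, and stood at 8.82e-06 without EV replicate 1. Dcn, decorin, had 10.8, 4.90 and 0 against 15.0, 0 and 0, and Lum, lumican, had 73.0, 0 and 7.29 against 12.0, 0 and 0. Most of the Lum counts came from sham replicate 1, and neither gene was tested.

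Serpinh1 encodes HSP47, the chaperone dedicated to procollagen, and had 722, 297 and 657 in the sham-treated and 213, 46.3 and 23.5 in the EV-treated cultures. The groups did not overlap, but the adjusted p was 0.0112, and 0.000132 without EV replicate 1. Pcolce, the enhancer of procollagen C-proteinase, had 158, 88.2 and 131 against 88.9, 43.7 and 60.9, with overlap and an adjusted p of 0.0549, or 0.0365 without EV replicate 1. Its exons overlap those of Fbxo24 on the same strand, so its counts may hold reads of both.

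Neither of the surface receptors tested, by which stromal cells are often sorted, passed the threshold, where 11.6% of all genes fell and 12.1% rose. Pdgfrb, the platelet-derived growth factor receptor β of pericytes and fibroblasts, had 1405, 1120.2 and 1078 in the sham-treated and 1544, 1249 and 1470.1 in the EV-treated cultures. It was the only gene of the 39 with a fitted log2 fold change above 0, at 0.24 ± 0.12 with an adjusted p of 0.148. Pdgfra, the receptor α of mesenchymal progenitors, was low at 42.3, 46.6 and 20.7 against 37.0, 13.7 and 4.35, with an adjusted p of 0.348. Thy1, a surface glycoprotein of fibroblasts and T cells, had 0 counts in all 3 sham-treated libraries and at most 3 counts in an EV-treated library.

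Among the contractile and caveolar genes, 3 of 4 fell, beside 11.6% of all genes. Cav1 encodes caveolin-1, the coat protein of caveolae, which are small pits in the membranes of endothelial cells, fibroblasts, smooth muscle and some macrophages. It spans 17306335 to 17341452 of the plus strand of chromosome 6, directly after the window printed above. Cav1 had 145, 216 and 321 in the sham-treated and 7.99, 6.86 and 3.48 in the EV-treated cultures, with all 3 EV-treated samples near the lower end of detection. It fell by 5.20 ± 0.44 (SE) on the log2 scale, with an adjusted p of 1.08e-05 and of at most 0.00015 without any one library. Cavin1, which stabilizes the caveolar coat, had 154, 84.6 and 168 against 49.0, 33.4 and 13.1. It fell, with a log2 fold change of -2.09 ± 0.48 and an adjusted p of 0.00676, which was 0.0195 without sham replicate 1, 0.0309 without sham replicate 3, 0.0273 without EV replicate 2 and 0.0188 without EV replicate 3.

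Tagln encodes transgelin, an actin-binding protein of smooth muscle and myofibroblasts, and had 121, 99.3 and 249 in the sham-treated and 52.9, 19.7 and 26.1 in the EV-treated cultures. It fell, with a log2 fold change of -2.25 ± 0.47 and an adjusted p of 0.0043, which was 0.0245 without sham replicate 3, 0.0213 without EV replicate 2 and 0.0262 without EV replicate 3. An exon of Pcsk7 on the opposite strand overlaps Tagln. Acta2, smooth muscle α-actin, had 425, 189 and 492 against 192, 127 and 86.2. The groups overlapped by the lowest sham-treated and the highest EV-treated sample, and the adjusted p was 0.0118, which passed the threshold without EV replicate 1, at 0.00715.

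The matrix genes varied more among cultures than most genes did, above all among the EV-treated cultures. The median coefficient of variation of the 39 genes was 37.0% among the sham-treated and 102.9% among the EV-treated cultures, where the medians over all genes tested were 12.95% and 7.14%. EV replicate 1 was the highest EV-treated sample for 34 of 39 genes, replicate 2 for 2 and replicate 3 for 3. Over all 13498 genes tested these counts were 4493, 4334 and 4665. Among the sham-treated cultures the highest sample was replicate 1 for 19 genes, replicate 2 for 3 and replicate 3 for 17, beside 4706, 4579 and 4193 of all genes. The 10 genes in which EV replicate 1 lay at or under 2 times the mean of the other EV-treated samples were Col5a1, Col18a1, Lamc1, Loxl2, Thbs1, Mamdc2, Pcolce, Pdgfrb, Acta2 and Cav1. Of these 10, 4 fell, and of the other 29, 9 fell, beside 11.6% of all genes. At the far end stood Col8a1, for which EV replicate 1 was 19.0 times the mean of the other EV-treated samples (after adding 1 to each), Tnc at 12.9, Col1a1 at 12.0 and Mgp at 12.0.

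**Figure D3:**
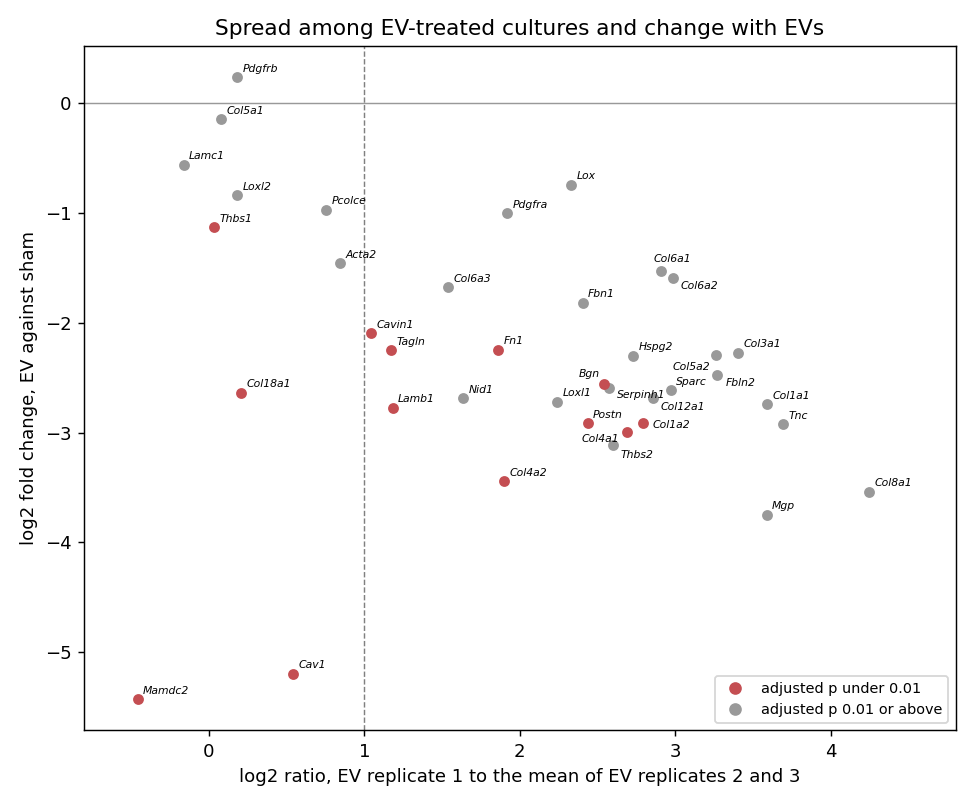
For the 39 genes tested, the log2 ratio of EV replicate 1 to the mean of EV replicates 2 and 3 (x axis, normalized counts plus 1, dashed line at a ratio of 2) against the log2 fold change of EV-treated against sham-treated cultures (y axis), with red points for an adjusted p under 0.01. The axes share the EV-treated samples; 29 genes lie to the right of the dashed line, and Mamdc2 and Cav1 lie alone at the lower left.

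Markers of other cell types that a marrow culture could hold also differed between the groups, and their part in the result was not tested. In bulk RNA, fewer cells of a type and less RNA per cell cannot be told apart. Of the bone marrow stromal and fibroblast markers, 13 of 18 were found and 8 tested. Of these, 1 rose (Pi16) and 1 fell (Cdh11), beside 12.1% and 11.6% of all genes. The sum of the list was carried by Pi16, at 2466 to 2781 in sham-treated and 4484 to 4773 in EV-treated cultures. Without Pi16, the sum lay at 386 to 682 in sham-treated cultures, at 283 in EV replicate 1 and at 146 and 139 in the other EV-treated cultures. Cdh11, a cadherin of mesenchymal cells and osteoblasts, had 188, 158 and 286 against 63.9, 14.6 and 16.5. Prrx1 and Foxc1 were lower without overlap but missed the threshold, at an adjusted p of 0.0494 and 0.0248. Ly6c1 had 12.6, 25.7 and 26.7 against 60.9, 56.6 and 68.8, higher without overlap at an adjusted p of 0.0287. The leptin receptor Lepr had 33.3, 12.3 and 23.1 against 22.0, 24.0 and 18.3, and Pdpn and Cxcl12 also overlapped. Ebf3, at most 13 counts in a sham-treated library and 0 in the EV-treated ones, was not tested.

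Of the osteoblast-lineage markers, Ibsp, Alpl and Sp7 were likewise uneven among the EV-treated cultures, whereas Runx2 was even at 3922, 3944 and 3901. Of the 6 of 8 found, 5 were tested, and beside 11.6% of all genes 1 of them fell. With Runx2, their highest gene, the sum was 3876 to 4710 in sham-treated and 3948 to 4206 in EV-treated cultures. Without Runx2 it was 429 to 1225 in sham-treated cultures, 284 in EV replicate 1 and 30.9 and 47.0 in EV replicates 2 and 3. Ibsp, the bone sialoprotein, had 429.8, 256 and 829 against 156, 8.57 and 22.6. Dmp1, a matrix protein of osteocytes and the marker that fell, had 112, 73.5 and 99.6 against 0.999, 0 and 0. Ibsp and Dmp1 were picked as examples after their values were seen. Ibsp, Alpl and Sp7 missed the threshold, at an adjusted p of 0.0137, 0.0768 and 0.0798. Alpl and Phex overlapped between the groups, and Phex was not tested.

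Macrophage markers were mostly lower, with EV replicate 1 below and not above the other EV-treated cultures. Of 12 listed, 10 were found and tested. Of these, 7 fell and 1 rose, beside 11.6% and 12.1% of all genes. The 1 that rose was Adgre1, the highest gene of the list. The sum was 45231, 61828 and 59509.8 in the sham-treated and 40806, 45594 and 44904 in the EV-treated cultures, and without Adgre1 it was 24025, 40732 and 37832 against 8721, 12062 and 12229.

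The remaining lists are given by count and by the range of their sum, with and without the highest gene, the latter a measure chosen after the values were seen. For each list, the shares over all genes tested were 12.1% that rose and 11.6% that fell. Eosinophil markers rose for 7 of 10 genes. Their sum was 927678 to 1169540 in sham-treated and 1325040 to 1482380 in EV-treated cultures, or 368919 to 452171 against 612222 to 704789 without Prg2. Endothelial markers, 8 of 12 found and 4 tested, had 1 gene that rose, Pecam1, their highest, and 1 that fell. Their sum was 7272 to 8413 against 10140.3 to 10757, but without Pecam1 it turned to 1019 to 1465 against 388 to 494, most of it Vwf, the marker that fell. Cdh5, the defining cadherin, had 7.21, 0 and 7.29 against 0, 0 and 0 and was not tested. Pericyte and smooth muscle markers, led by Rgs5, fell for 3 of 6 tested, with a sum of 623 to 781 against 281 to 375, or 245 to 338 against 60.1 to 125 without Rgs5. Megakaryocyte and platelet markers, led by Itga2b, had 1 gene that rose and 2 that fell of 6 tested, with a sum of 16115 to 18421 against 17143 to 20365 that turned to 6034 to 6768 against 2631 to 3382 without Itga2b.

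**Figure D4:**
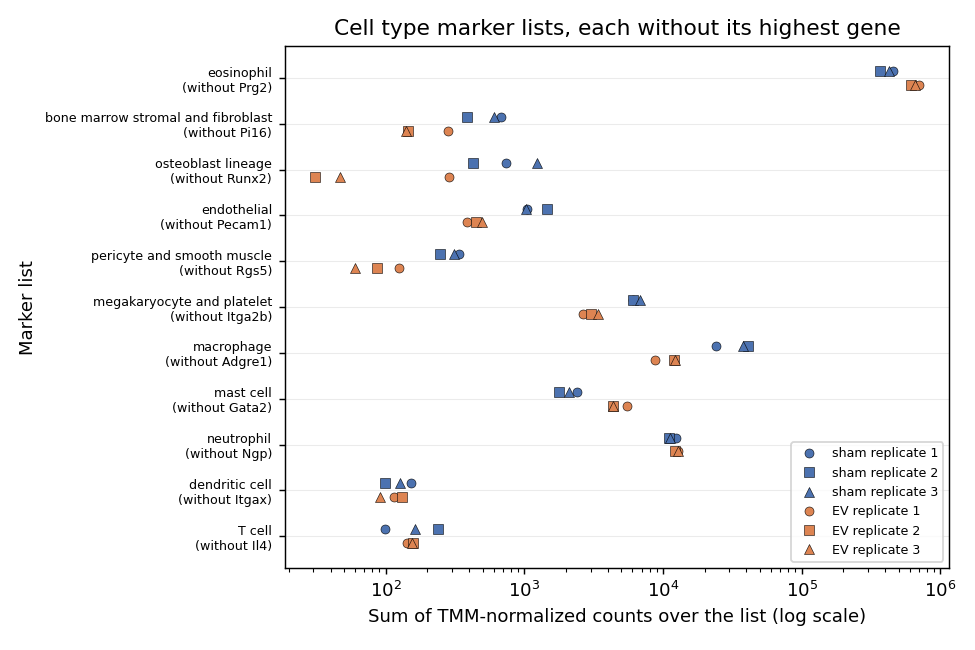
Sum of TMM-normalized counts over each of 11 cell type marker lists, without the highest gene of the list, on a log scale, in 3 sham-treated (blue) and 3 EV-treated (orange) cultures, with circles, squares and triangles for replicates 1, 2 and 3. EV replicate 1 lies above the other EV-treated samples for the stromal, osteoblast, pericyte, eosinophil, mast cell and neutrophil lists. It lies below them for the macrophage, endothelial, megakaryocyte and T cell lists, and between them for the dendritic cell list.

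Mast cell markers, led by Gata2, rose for 3 of 4 tested, where 12.1% of all genes rose and 11.6% fell. Their sum was 4016 to 5017 in sham-treated and 9329 to 10976 in EV-treated cultures, or 1772 to 2406 against 4331 to 5491 without Gata2. Neutrophil markers, led by Ngp, had 2 genes that rose and 4 that fell of 9 tested, with a sum of 17919.9 to 20577 against 18854 to 22416, or 11128 to 12446 against 12133 to 12921 without Ngp. Dendritic cell markers, led by Itgax, had none called of 5 tested, with a sum of 4957 to 5601 against 5208 to 6377, or 99.3 to 152 against 91.4 to 130.3 without Itgax. T cell markers rose for 2 of 5 tested, the cytokine genes Il4, the highest of the list, and Il13. Cd3d, Cd8a and Gata3 overlapped between the groups, at an adjusted p of 0.714, 0.672 and 0.235. The sum of the list was 578 to 634 against 935 to 1037, or 98.2 to 239 against 142 to 158 without Il4.

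Enzymes that build collagen gave a mixed picture. Of 25 listed and 23 found, 18 were tested, of which 5 fell and 3 rose, beside 11.6% and 12.1% of all genes. Bmp1, the proteinase that trims procollagen, had a mean of 322 ± 92.1 in sham-treated and 70.2 ± 60.3 in EV-treated cultures (SD, n = 3), with an adjusted p of 0.00575 that was lost without any one library other than EV replicate 1, reaching 0.0255. P3h3, of the prolyl 3-hydroxylase family, had 144 ± 34.4 against 22.0 ± 6.17, with an adjusted p of 0.000218. P4ha2, a catalytic subunit of collagen prolyl 4-hydroxylase, had 80.9 ± 11.0 against 18.5 ± 6.53, with an adjusted p of 0.00422 that was 0.0169 without sham replicate 3, 0.0158 without EV replicate 1, 0.0221 without EV replicate 2 and 0.0158 without EV replicate 3. The number that fell was 2 without sham replicate 3, EV replicate 2 or EV replicate 3, beside 8.67%, 7.48% and 7.29% of all genes. The number that rose was 1 without EV replicate 2 or EV replicate 3, beside 7.97% and 7.67% of all genes.

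Receptors for matrix proteins fell for 10 of 25 tested, of 30 listed and found, and rose for 3, beside 12.1% higher and 11.6% lower of all genes. Lrp1, an endocytic receptor that clears thrombospondin 1 among other ligands, had 27937 ± 7592 in sham-treated and 2451 ± 433 in EV-treated cultures, a log2 fold change of -3.51 at an adjusted p of 1.15e-06. Itga9, an integrin chain that binds tenascin C, had 157 ± 50.3 against 11.4 ± 7.58, and Itgb5, a partner of the αv chain, had 5205 ± 1499 against 726 ± 71.6. Their adjusted p-values were 0.000275 and 2.61e-06. None of these 3 showed the high EV replicate 1 seen for the collagens, with that sample at 0.729, 0.309 and 0.881 times the mean of the other EV-treated cultures for Lrp1, Itga9 and Itgb5.

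TGF-β signalling genes, whose pathway induces collagen and periostin in mesenchymal cells, fell for 8 of 24 tested, of 27 listed and 25 found, and rose for 3, beside 12.1% higher and 11.6% lower of all genes. Smad6, an inhibitory SMAD, had 239 ± 30.5 in sham-treated and 11.5 ± 6.65 in EV-treated cultures, with an adjusted p of 1.55e-05. Ltbp3, a carrier of latent TGF-β, had 989 ± 231 against 131 ± 43.4, with an adjusted p of 1.12e-05. Ccn2, connective tissue growth factor, had 268 ± 76.9 against 34.9 ± 33.0, and its adjusted p of 0.00193 was 0.0101 without sham replicate 3 and 0.0114 without EV replicate 2. The median log2 fold change of the list was -0.28.

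Genes of caveolae and the contractile apparatus rose for 10 of 26 tested, of 32 listed and 28 found, and fell for 4, beside 12.1% higher and 11.6% lower of all genes. Cav2, the partner of caveolin-1, had 388 ± 160.0 in sham-treated and 74.9 ± 14.2 in EV-treated cultures, with an adjusted p of 0.000329. Tpm4, a tropomyosin of non-muscle cells, had 1512 ± 339 against 351 ± 41.3, with an adjusted p of 8.36e-06. Vcl, or vinculin, which anchors actin at adhesion sites, moved the other way, at 6048 ± 122 against 14285 ± 306, with an adjusted p of 1.39e-07. The median log2 fold change of the list was -0.22.

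Other matrix genes rose for 5 of 24 tested, of 43 listed and 29 found, and fell for 2, beside 12.1% higher and 11.6% lower of all genes. Lama5, the laminin α5 chain, showed the largest change of the list, at 259, 263 and 247 in sham-treated and 12712, 12464 and 12574 in EV-treated cultures. It rose by a log2 fold change of 5.62 ± 0.068 (SE), with an adjusted p of 4.1e-11 and no overlap. Srgn, serglycin, the proteoglycan that packs granule proteins in leukocytes, had 10534 ± 931 against 32904 ± 857, with an adjusted p of 1.39e-07. Col7a1, of the anchoring fibrils, had 124 ± 8.68 against 51.0 ± 11.3, and its adjusted p of 0.0068 was lost in each of the 6 fits without 1 library, reaching 0.037. The number that fell was 1 without sham replicate 1, sham replicate 2 or EV replicate 2, 0 without sham replicate 3 or EV replicate 3, and 5 without EV replicate 1. Of all genes, 7.29% to 12.3% fell in these fits, and 8.62% in the fit without EV replicate 1.

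The genes outside the list whose log2 CPM was most like the mean profile of the 13 genes that fell were Slit2, Col7a1, Sall2, Hpgd and Thada. Their Pearson r over the 6 samples was 0.998, 0.998, 0.997, 0.996 and 0.996, which is a description of 2 groups of 3 samples. Slit2, a secreted guidance ligand, had a mean of 105 ± 33.0 in sham-treated and 5.44 ± 5.69 in EV-treated cultures, and Thada, at 1390.0 ± 65.8 against 903 ± 74.4, shared the profile at a much smaller fold.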

How the data were processed

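Poly(A) RNA of 3 sham-treated and 3 EV-treated mouse eosinophil cultures was sequenced, and groups were taken from the sample labels. Per the submitters' processing notes and the paper's methods, the authors used FastQC, cutadapt, Salmon and DESeq2 and the build mm10, with versions, annotation and strand setting not given in the sources used here. The authors deposited estimated counts per gene, which need not be whole, and normalized counts, a signal equal to the rounded count plus 1 over a size factor for all but 5 values. A deposited table of the authors' own comparison (fold changes and p-values) was not used.

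Estimated counts were rounded and fitted with edgeR 4.0.16 in R 4.3.3 (TMM scaling, filterByExpr, quasi-likelihood test, Benjamini-Hochberg adjustment over 13498 genes). A gene fell or rose at an adjusted p under 0.01, the threshold of the study, with no minimum fold. SE is the log2 fold change over the square root of F. Steps were tested on simulated counts. An exact permutation test of 3 against 3 samples cannot go below 0.1 and was not run. Counting error is small at these depths except for genes with few counts. The chi-square per gene between samples of a group was 8.37 to 31.8, so no pair of libraries differed by sampling noise alone. Alternatives were DESeq2 1.42.0, limma 3.58.1 on the deposited normalized counts (log2 after adding 1), other scalings, no filter, other thresholds, a replicate block, and each sample left out. Leaving out replicate 1 of both groups was added after seeing the data. Lengths are of the longest coding transcript in GENCODE vM21. Gene lists and members were chosen with earlier results of these data known. Genes named are the members that passed the threshold or were among the 6 highest per kilobase, up to 3 others per role group by mean, the 3 most changed called genes of each pathway list with a mean of at least 20, the highest gene of each marker list, and the 5 genes most alike in profile. Other members are named with their adjusted p, and the other marker genes were named after their values were seen.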

Additional observations from a re-analysis of the deposited data

How the results depend on the processing

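Of the results on all matrix and stromal genes, the count that rose was 0 in every alternative, beside 3.1% to 17.5% of all genes. The count that fell moved from 13 to 31 at an adjusted p under 0.05, beside 18.4% of all genes. It was 29 without replicate 1 in both groups, beside 10.9% of all genes. When 1 sample was left out it lay between 5 and 32, beside 7.29% to 12.3% of all genes. Without 1 sample the median log2 fold change lay between -3.82 and -2.10, and it was -3.32 without replicate 1 in both groups. The count that fell was within 1.5 times of 13 with other scalings, with DESeq2, with limma, without the filter and with a minimum log2 fold change of 1. The share of all genes that fell was 6.35% to 17.4% in these settings. Among single genes, Col5a1 changed sign, to 0.038 without sham replicate 1 and to 0.0076 without replicate 1 in both groups, at an adjusted p of 0.826 and 0.972, with a range of -0.296 to 0.038 when 1 sample was left out. DESeq2 lost the calls of Col1a2 (adjusted p 0.0125) and Bgn (0.0128), and limma that of Cavin1 (0.0106). Scaling by library size alone moved the median log2 fold change of all genes from -0.014 to -0.16, and the genes called from 1632 higher and 1572 lower to 1036 higher and 2342 lower, with 19 matrix genes lower beside 17.4% of all genes. The groups share replicate numbers, but the labels do not say that a number marks 1 culture or mouse, and deviations of same-numbered samples correlated across all genes at r = 0.117, 0.0846 and 0.0371, not all over 0.1, so the main fit was not paired. Across the 39 matrix genes alone r was 0.364, 0.360 and 0.210, and each sample correlated best with its own number, a hint from the data that the numbers may pair. Across all genes EV replicate 3 correlated best with sham replicate 2 (r = 0.0487). With the replicate block, 33 matrix genes fell, beside 13.2% of all genes, so that most genes that missed the threshold passed it, Col1a1 at an adjusted p of 4.81e-06 among them. Where the cause of a change is not fewer samples or another threshold, it was not tested. Depth limits Fbln1, Dcn, Lum and Thy1, which had too few counts to be tested.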
